A study of Homo sapiens with 12 samples.

Results

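The genes described here are 10 epithelial genes, the simple keratins KRT7, KRT8, KRT18 and KRT19, the surface protein EPCAM, the claudins CLDN3, CLDN4 and CLDN7, the junction scaffold TJP1 and the tight junction protein OCLN. They were taken by name out of 20136 protein-coding genes annotated on GRCh37. The rule uses no measured value, but the list was drawn up with earlier results of these data known. For each one, H3K4me3 and IgG peaks were collected at distances up to 1, 2.5 and 10 kb, both from its 5′ end (the most upstream annotated start) and from the start of any of its transcripts.

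The libraries came from BON1, a human pancreatic neuroendocrine tumor cell line, by CUT&RUN, in which a nuclease held by an antibody releases the DNA around the antibody's target. Control cells, named BON1/TGL/pQ, were set beside cells named BON1/TGL/HA-Bcl-xL, which overexpress an HA-tagged form of Bcl-xL, a BCL2 family protein that blocks apoptosis. Both were grown in medium with puromycin, and 500000 cells per condition were used. An antibody to H3K4me3 and a rabbit anti-mouse IgG were each applied to 3 replicates of either line, and the first H3K4me3 replicate of HA-Bcl-xL cells is not analysed here, which leaves 3 control and 2 HA-Bcl-xL H3K4me3 libraries and 3 IgG libraries of each line. The labels do not say whether a line is 1 clone or whether replicates were separate cultures, so the tests measure only the spread between these libraries.

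Trimethylation of lysine 4 on histone H3 is found around the start sites of active genes and is laid down in step with transcription initiation. Keratins form the intermediate filaments of epithelial cells as pairs of a type II and a type I chain, and KRT8 with KRT18 is the pair of simple epithelia, while KRT7 and KRT19 are typical of ducts. EPCAM is a homophilic adhesion protein of epithelial surfaces, claudins are the membrane proteins that set the selectivity of tight junctions, OCLN is a further membrane protein of that junction, and TJP1 (ZO-1) ties both to actin.

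The H3K4me3 lists held 10247 to 17711 peaks on chromosomes 1 to 22, X and Y, with median widths of 112 to 128 bp and 9 to 12 fragments at the median peak's summit. Control replicates 1, 2 and 3 had 17711, 12159 and 10247 peaks and the HA-Bcl-xL libraries 16379 and 15497. The IgG lists held 1674 to 2113 peaks in the control line and 244 to 268 in the HA-Bcl-xL line. Fragments at a summit are whole numbers solved from each peak's deposited fold and -log10 p, and the sources do not tell whether the unit is the fragment or the read. Of the 12 neuroendocrine genes listed to check the labelled cell type, 9 had a peak within 1 kb of a transcript start in at least 1 H3K4me3 library, and CHGB, SCG2, NEUROD1 and SCG3 had one in all 5. None of the 7 annotated immune and endothelial genes had one. The shares of all protein-coding genes were 56.6% in at least 1 H3K4me3 library and 26.5% in all 5.

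The stretches of GRCh37 that lay under the peaks of every library with a peak there are given first for 3 peaks of KRT8, KRT18 and CLDN3, because they show where in each gene the mark was found. Each is cut to its longest part outside annotated UTRs and is written 5′ to 3′. Capitals mark matches to any of 6 motifs searched on both strands: the E-box CACCTG, bound by SNAI and ZEB repressors, the GC box GGGCGG, the CCAAT box bound by NF-Y, the TATA box TATAAA, the AP-1 motif TGANTCA and the Grainyhead motif AACCNGTT. The first, chr12:53343667-53343832 on the plus strand, crosses the 5′ end of KRT8. It lies in intron 1 of the MANE Select transcript of KRT18 (the reference transcript agreed between Ensembl and RefSeq), and the summits in it fall in an exon of another KRT18 transcript. Another, chr12:53297786-53297881 on the minus strand, lies in intron 1 of the MANE Select transcript of KRT8. The CLDN3 stretch, chr7:73184628-73184687 on the minus strand, lies just upstream of the gene and was shared by 4 libraries.
KRT8 and KRT18 shared peak: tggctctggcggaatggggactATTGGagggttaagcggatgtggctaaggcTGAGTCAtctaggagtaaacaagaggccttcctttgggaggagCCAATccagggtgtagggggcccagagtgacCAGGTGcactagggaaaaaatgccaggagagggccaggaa
KRT8 intron peak: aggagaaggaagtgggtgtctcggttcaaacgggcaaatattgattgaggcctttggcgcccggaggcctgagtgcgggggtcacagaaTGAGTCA
CLDN3 upstream peak: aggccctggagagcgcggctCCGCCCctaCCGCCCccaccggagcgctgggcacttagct

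The shared KRT8 and KRT18 stretch held 2 CCAAT matches, 1 AP-1 match and 1 E-box match in 166 bases, with 2 CpG dinucleotides and 56% GC. Over the 17711 peaks of control replicate 1, windows of that length centred on the summit held CCAAT in 25.2%, the AP-1 motif in 4.05% and the E-box in 11.9%. An AP-1 match ended the 96 bases of the KRT8 intron stretch, where 2.57% of peaks held one. The 60 bases of the CLDN3 stretch held 2 GC boxes and 75% GC, with 15.8% of peaks holding a GC box.

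Which of the genes carried the mark at a promoter depended on which start was taken. At 1 kb from the most 5′ annotated end, 6 of the 10 genes had an H3K4me3 peak in at least 1 library, beside 48.2% of all protein-coding genes. KRT8 and KRT18 had one in all 5 libraries, 2 of 10 genes beside 21.3%, and it is 1 peak that they share. Without control replicate 2 the number with a peak in every remaining library was 4, where the share of all genes was not counted. At 2.5 kb and at 10 kb 8 of the genes had a peak, beside 53.5% and 60.5%. Within 1 kb of the start of any transcript all 10 had a peak in at least 1 library and 4, KRT8, KRT18, EPCAM and TJP1, had one in all 5, beside 56.6% and 26.5% of all genes. For 5 of the 10 genes, KRT8, EPCAM, CLDN4, CLDN7 and TJP1, the start of the MANE Select transcript lay over 1 kb from the most 5′ annotated end, whereas 17.1% of 18917 genes with such a transcript had it that far. Around the MANE Select start, a window added after the data were seen, 10 of the genes had a peak in at least 1 library and 4 in all 5, beside 52.9% and 23.2%. The genes had a median of 7.5 annotated transcript starts, from 1 in CLDN3 to 18 in KRT8, and all genes a median of 5. Around any start control replicates 1, 2 and 3 listed 9, 7 and 7 of the 10, and the HA-Bcl-xL libraries 7 and 8, beside 48.4%, 39.3%, 34.4%, 45.8% and 44% of all genes. With the 10247 strongest peaks of each H3K4me3 list, 6 of the 10 had a peak at the 5′ end in at least 1 library and 2 in all 5, beside 42.6% and 17.9% of all genes.

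**Figure D1:**
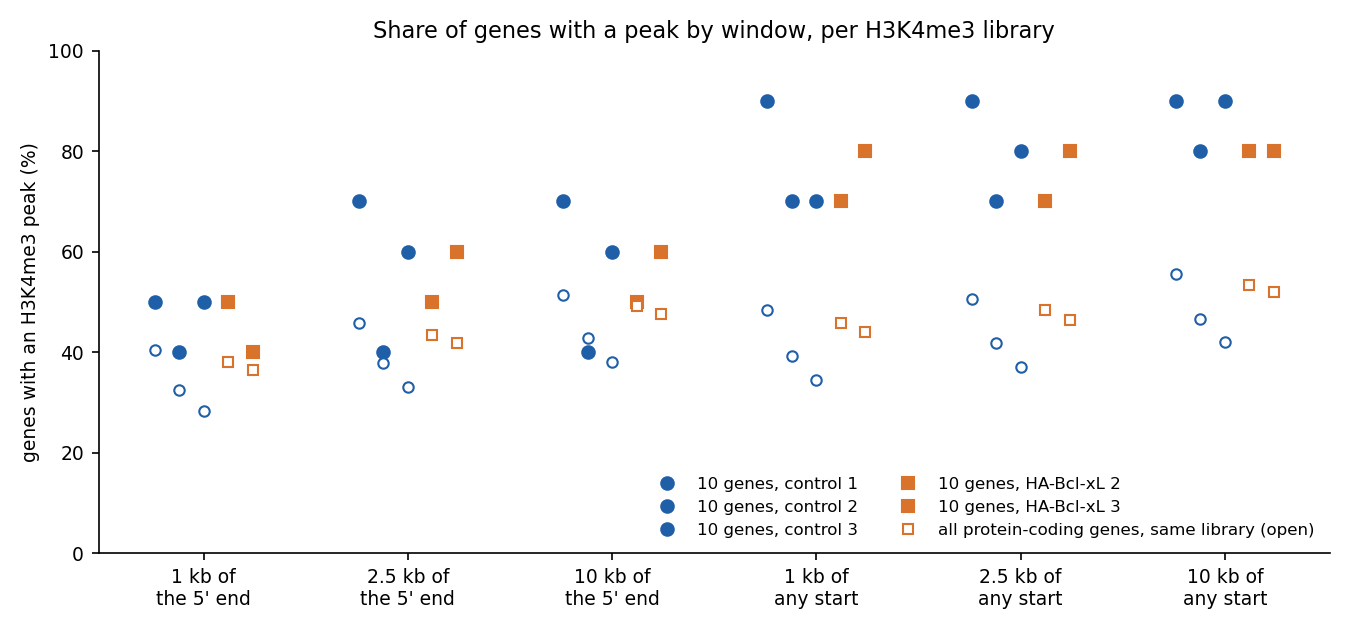
Share of genes (%) with an H3K4me3 peak in each of 6 windows, 1 filled point per library for the 10 genes and 1 open point for all protein-coding genes in the same library (circles, control; squares, HA-Bcl-xL). Within 1 kb of the 5′ end the libraries listed 4 or 5 of the 10 genes, and within 1 kb of any transcript start they listed 7 to 9, above the open points of 34.4% to 48.4%.

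KRT8, the type II chain of the simple epithelial pair, and KRT18, its type I partner, lie head to head on chromosome 12, KRT8 at chr12:53290971-53343738 on the minus strand and KRT18 at chr12:53342655-53346690 on the plus strand. They shared 1 peak, the first of the stretches above. Its summit held 47, 37 and 34 fragments in control replicates 1, 2 and 3, and 36 in each HA-Bcl-xL library. The values of the lines overlapped, and the peak ranked between percentiles 98.9 and 99.6 of its own list by -log10 p in every H3K4me3 library. Its summit lay at -12, 34, 41, 53 and 68 bases from the KRT8 5′ end, where negative values are upstream, and 768 to 848 bases downstream of the KRT18 MANE Select start. It therefore counts for both genes and is 1 measurement, not a pair of them. Around the KRT8 5′ end it covered 238, 211 and 295 bases in the control libraries and 230 and 307 in the HA-Bcl-xL libraries. The KRT18 5′ end is over 1 kb from the summit, at 1015 to 1095 bases, so in its window only the edge of the peak was counted, 34 to 119 bases.

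KRT8 carried 2 further peaks in all 5 libraries around its MANE Select start, which lies 44878 bases downstream of the most 5′ end. The peak at that start held 15, 12 and 11 fragments in the control libraries and 11 and 14 in the HA-Bcl-xL libraries, and the peak in intron 1 held 18, 13, 16, 17 and 13 in the same order. Both were lower in every library than the shared peak. Summed over all KRT8 starts, peaks covered 727, 654 and 521 bases in control and 631 and 560 in HA-Bcl-xL libraries, with both HA-Bcl-xL values inside the control range.

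KRT7 and KRT19, the ductal keratins, had few peaks. KRT7 (chr12:52626304-52645970) had none inside 1 kb of the 5′ end, and had 1 peak each in control replicates 1 and 3 and in HA-Bcl-xL replicate 3, with 7, 10 and 8 fragments, in an intron 437 to 803 bases downstream of the MANE Select start. The peaks of control replicate 1 and HA-Bcl-xL replicate 3 overlapped and that of control replicate 3 lay apart from them, and both replicates numbered 2 had none. KRT19 (chr17:39679869-39684560) had a peak in control replicate 2 alone, with 10 fragments, 725 bases downstream of its start in an intron. A KRT19 peak was thus called in 1 of 5 libraries, near the median height of that library's peaks. None of the 19 other keratins on the list, which include those of stratified epithelia, had a peak within 1 kb of any transcript start in any H3K4me3 library. Of all protein-coding genes, 56.6% had one there in at least 1 library.

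EPCAM (chr2:47572297-47614740, plus strand) showed a steady peak and a variable one. The intron 1 peak held 21, 18 and 20 fragments in control replicates 1, 2 and 3, and for HA-Bcl-xL 20 in replicate 2 and 25 in replicate 3, with its summit 770 to 805 bases downstream of the MANE Select start. It covered 315, 227 and 240 bases in control and 227 and 261 in HA-Bcl-xL libraries and ranked at percentiles 93 to 97.9, so it was present at a like height in all 5. The other peaks lay 24153 bases upstream, around the most 5′ annotated end, and covered 342, 0 and 81 bases in control and 276 and 309 in HA-Bcl-xL libraries, with 5 to 10 fragments at the summit. There control replicate 1 was above both HA-Bcl-xL libraries and control replicate 2 had no peak.

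**Figure D2:**
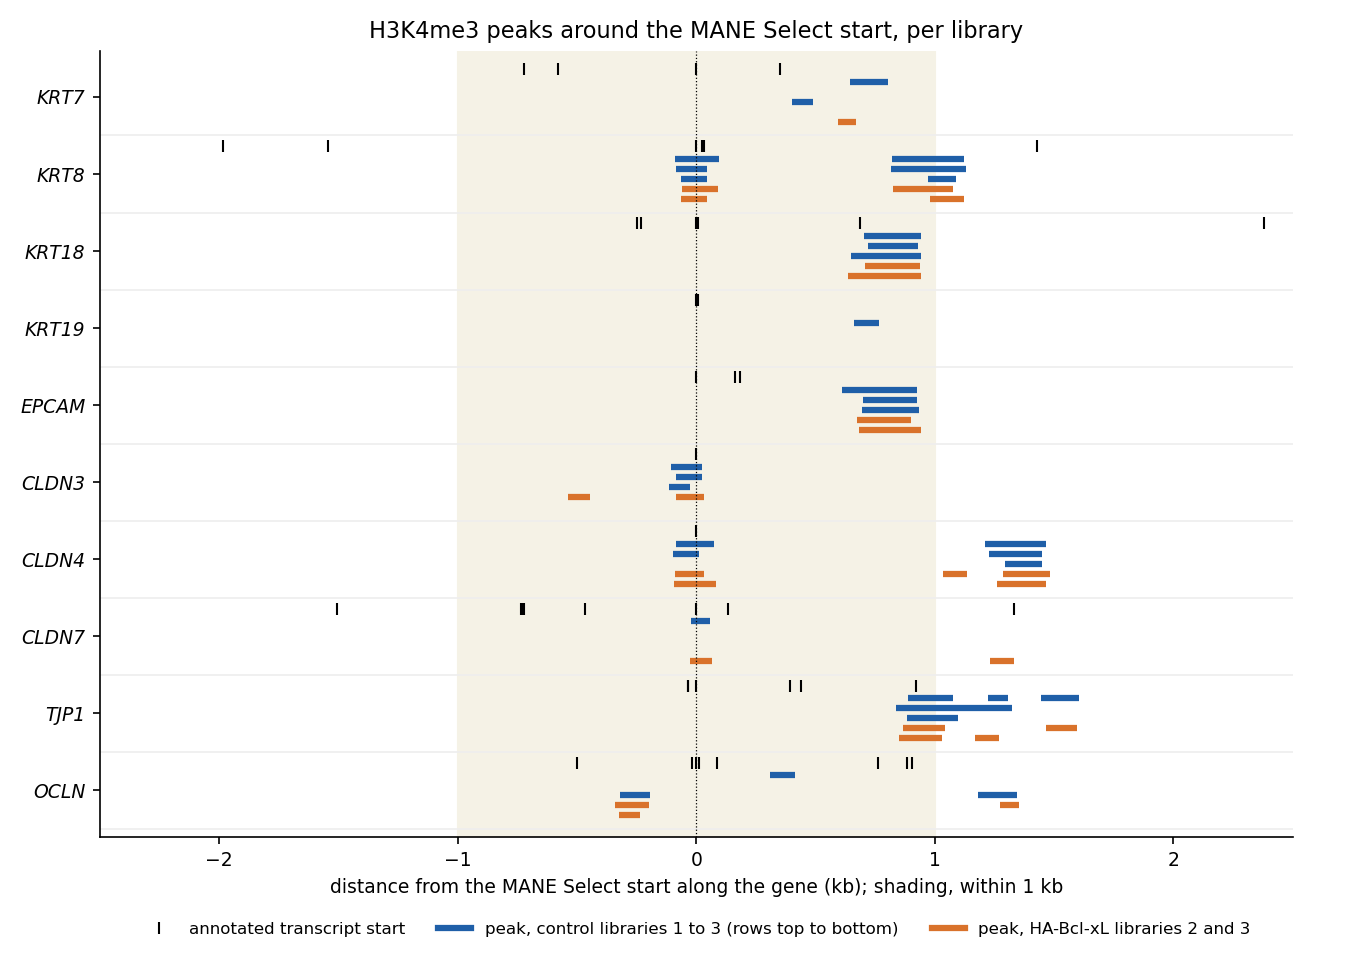
Position of the H3K4me3 peaks (bars) within 2.5 kb of each gene's MANE Select start, in kb along the gene, with 5 rows per gene, the control libraries above and the HA-Bcl-xL libraries below. Black ticks are annotated transcript starts and shading is the stretch within 1 kb. Within this range the bars of KRT18, EPCAM and TJP1 stand downstream of the start in all 5 rows, and the EPCAM peaks around its most 5′ end lie outside it, those of CLDN3 at or upstream of it in 4.

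The claudins differed from one another. CLDN3 (chr7:73183327-73184600, minus strand) had a peak at its single annotated start in all 3 control libraries, with 7, 6 and 6 fragments, and in HA-Bcl-xL replicate 2 with 7, and none in HA-Bcl-xL replicate 3. The summits stood at -11, -46, -91 and -30 bases, where negative values are upstream. HA-Bcl-xL replicate 2 had a second peak at -454 bases with 5 fragments. Every CLDN3 peak was below the median height of its own library, so the missing call in 1 library does not show that the mark was absent there. CLDN4 (chr7:73213872-73247020, plus strand) had no peak at its most 5′ end. At its MANE Select start, 31454 bases downstream, 17 and 11 fragments were found in control replicates 1 and 2 and, for HA-Bcl-xL, 13 in replicate 2 and 16 in replicate 3, with none called in control replicate 3. Its tallest peak lay further in, in the 3′ UTR and 1344 to 1398 bases from that start, with 35, 21 and 23 fragments in control and 28 and 30 in HA-Bcl-xL libraries, present in all 5 and outside every window of 1 kb. CLDN7 (chr17:7163222-7167302, minus strand) had a peak at its MANE Select start in control replicate 1, with 10 fragments, and in HA-Bcl-xL replicate 3, with 14, and in no other library. HA-Bcl-xL replicate 3 also had an intron peak of 8 fragments, 1290 bases from that start. Of 19 other claudins, 3 had a peak within 1 kb of a transcript start in at least 1 library, beside 56.6% of all genes. CLDN12 alone had one in all 5, beside 26.5%.

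TJP1 (chr15:29991571-30261118, minus strand) had no peak within 10 kb of its most 5′ end and a peak in all 5 libraries around 1 internal start, 889 to 971 bases downstream of the MANE Select start. Its tallest peak there held 17, 17 and 11 fragments in control and 16 and 15 in HA-Bcl-xL libraries. Over all its starts TJP1 peaks covered 431, 487 and 215 bases in control and 305 and 284 in HA-Bcl-xL libraries, with the HA-Bcl-xL values between the lowest and highest control. OCLN (chr5:68788119-68853931, plus strand) had a peak less than 1 kb from the 5′ end in control replicates 1 and 3 and in both HA-Bcl-xL libraries, covering 107 and 125 bases in control and 141 and 89 in HA-Bcl-xL, and none in control replicate 2. The peaks of control replicate 3 and of both HA-Bcl-xL libraries shared 1 place, with summits 186 to 225 bases from the 5′ end and 8 to 10 fragments, whereas that of control replicate 1 lay in an intron at 817 bases. A second OCLN peak, with summits 1291 and 1302 bases from the MANE Select start, held 9 fragments in control replicate 3 and 10 in HA-Bcl-xL replicate 2.

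Ordered by the tallest peak within 1 kb of any start, KRT8 and KRT18 came first with the 1 peak they share, at 34 to 47 fragments. That peak stood above EPCAM, with 18 to 25, in each of the 5 libraries. EPCAM stood above TJP1, with 11 to 17, in each as well. The KRT8 peaks around its MANE Select start, with 11 to 18 fragments, were below EPCAM in each library. CLDN4, with 0 to 17, overlapped TJP1. CLDN4, CLDN7, OCLN, KRT7, KRT19 and CLDN3 overlapped one another with 0 to 17 fragments. The CLDN4 peak in its 3′ UTR lay outside these windows and, with 21 to 35 fragments, stood above EPCAM in each library. A height of 0 here means no called peak. No order is read from the heights beyond these overlaps.

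**Figure D3:**
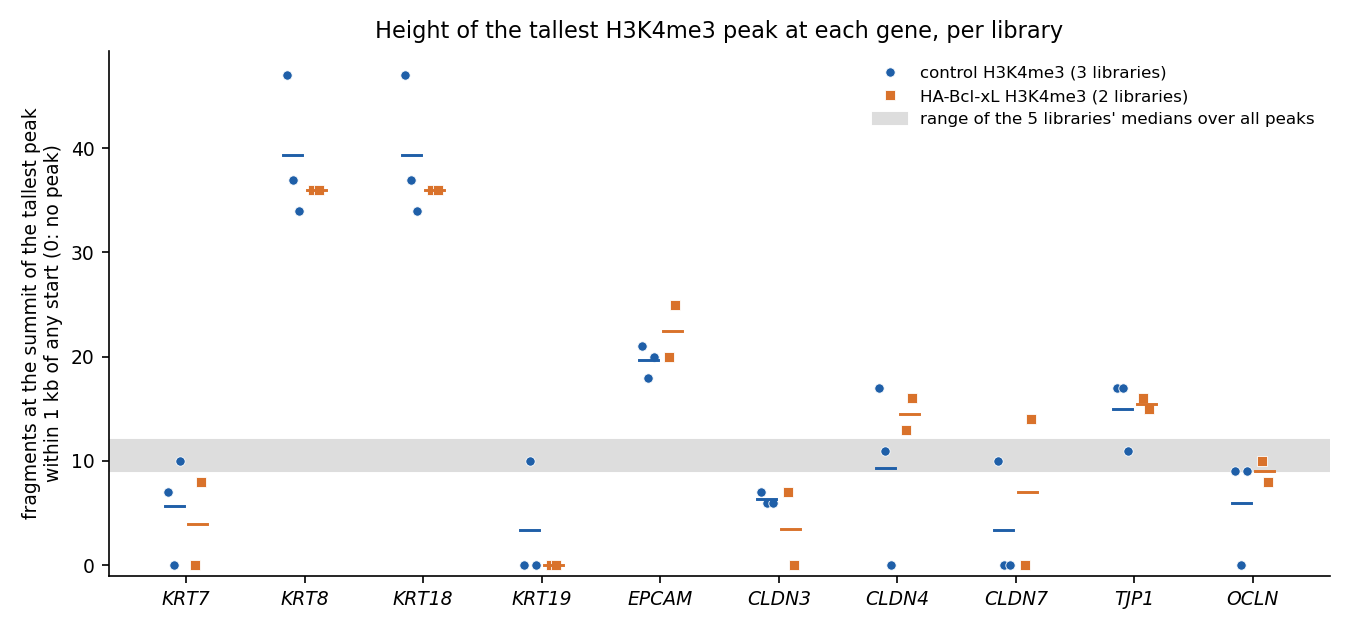
Fragments at the summit of the tallest H3K4me3 peak within 1 kb of any transcript start, 1 point per library with bars for the mean of each line, and 0 where no peak was called. The grey band is the range of the libraries' medians over all their peaks, 9 to 12, and KRT8, KRT18 and EPCAM lie above it in all 5 libraries while CLDN3 lies below it.

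IgG gave the background measured in the same way. None of the 10 genes had an IgG peak in any of 6 libraries within 1 kb of the 5′ end, where 0.785% of all genes had one, nor within 10 kb of any transcript start, where 9.06% had one. Mean promoter bases within 1 kb of the 5′ end were compared between H3K4me3 and IgG by an exact permutation test, two-sided, that exchanged antibody labels within each line. KRT8, with 256.2 ± 42.3 bases (SD, n = 5) against 0 in 6 IgG libraries, and KRT18, with 71 ± 39 against 0, reached exact p = 0.005, the smallest that 200 relabellings can give, and a Benjamini-Hochberg adjusted p of 0.0235 over all genes. EPCAM (201.6 ± 151.6 bases), CLDN3 (109.6 ± 77.4) and OCLN (92.4 ± 55.2) reached exact p = 0.02 and adjusted p = 0.0684. The unadjusted threshold was therefore passed by 5 of the 10 genes, beside 29.2% of all genes. The adjusted one was passed by 2, KRT8 and KRT18 with their 1 shared peak, beside 21.3%. Every IgG value of the 10 genes was 0, so the p follows the number of H3K4me3 libraries with a peak. It is 0.005 for 5 and 0.02 for 4, and adds nothing to those counts. Around any start 7 genes passed unadjusted, beside 36.1%, and 4 after adjustment, beside 26.4%, namely KRT8, KRT18, EPCAM with 455.6 ± 177.7 bases and TJP1 with 344.4 ± 111.6. The IgG lists were shorter than the H3K4me3 lists in every library. With the 244 strongest peaks of every list, KRT8 and KRT18, by their shared peak, had an unadjusted exact p of 0.005. That is 2 genes but 1 measurement, beside 0.576% of all genes under the threshold, and no gene passed after adjustment. Leaving out 1 HA-Bcl-xL library, of either antibody, brought the 5 genes to 2 or 3, beside 21.3% to 22.2% of all genes, and left none past the adjusted threshold, with exact permutation adjusted p = 0.0564 to 0.0784 for KRT8 and KRT18.

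**Figure D4:**
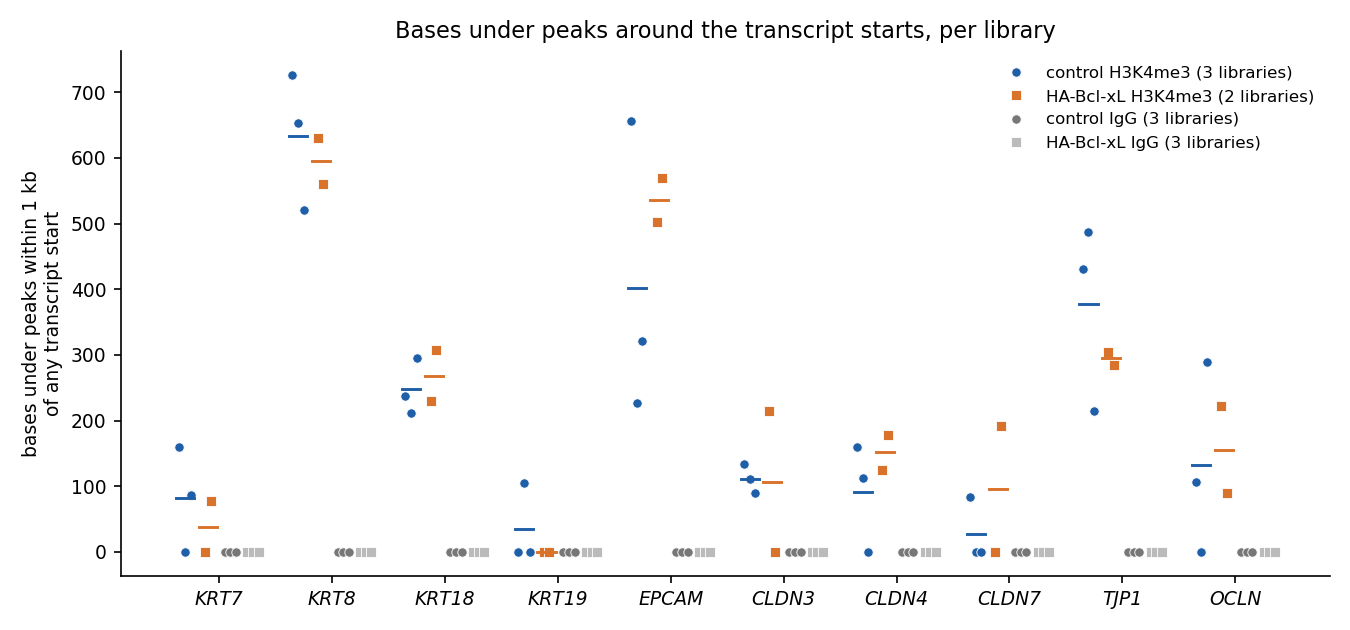
Bases under peaks within 1 kb of any transcript start for each gene, 1 point per library, with bars for the mean of the H3K4me3 libraries of each line. Every IgG point is at 0, and the H3K4me3 points of the lines overlap for KRT8, KRT18, EPCAM and TJP1.

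The comparison the study was built for, HA-Bcl-xL against control, found no gene of the 10 with a peak in every library of one line and none of the other. A 1 kb window at the 5′ end with peaks in all HA-Bcl-xL but no control libraries was seen for 0.844% of all genes, the opposite pattern for 0.248%, and none of the 10 was among them. The control libraries listed 4.67 ± 0.58 of the 10 genes (SD, n = 3) and the HA-Bcl-xL libraries 4.5 ± 0.71 (n = 2), beside 28.2% to 40.4% of all genes in a control library and 36.5% and 38.1% in the HA-Bcl-xL libraries. In limma on log2 of the bases under peaks plus 50, over 7506 genes with a mean of at least 50 bases, 0 genes passed a Benjamini-Hochberg adjusted p of 0.05, which is 0%, and 365 had an unadjusted p under 0.05. Of the 10 genes, 5 entered that fit and 5, KRT7, KRT19, CLDN4, CLDN7 and TJP1, did not, for too few bases at their 5′ end. The log2 difference, HA-Bcl-xL minus control, was -0.075 ± 0.46 (SE) for KRT8 and 0.038 ± 0.57 for KRT18, with limma adjusted p = 0.999 for both. EPCAM differed by 1.15 ± 0.72, with unadjusted p = 0.156 and limma adjusted p = 0.995. That EPCAM difference rested on the upstream peaks that control replicate 2 lacked, was 0.47 ± 0.50 without that library and was -0.24 ± 0.40 around the MANE Select start. CLDN3 differed by -0.65 ± 0.69 and OCLN by 0.38 ± 0.64, both with limma adjusted p = 0.995, and without HA-Bcl-xL replicate 3, which had no CLDN3 peak, the CLDN3 value was 0.50 ± 0.57, where the HA-Bcl-xL line has 1 library and the spread is that of the control libraries. Around any transcript start, 9 of the 10 genes entered the fit, with values from -0.67 ± 0.70 for KRT7 to 0.57 ± 0.54 for CLDN4 and limma adjusted p = 0.999 for each. With so few libraries, a difference several times its standard error was not called. With the replicate number as a block, EPCAM at 1.69 ± 0.55 had unadjusted p = 0.0354 and limma adjusted p = 0.677. In that fit control replicate 1 has no HA-Bcl-xL partner and adds nothing to the difference.

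Other genes of the junctions and of epithelial identity were counted within 1 kb of any transcript start, on lists that were drawn up with earlier results of these data known. Of all protein-coding genes, 56.6% had a peak there in at least 1 library and 26.5% in all 5. Of 14 tight junction scaffold and polarity genes, 13 had a peak in at least 1 H3K4me3 library and 6 in all 5, namely F11R, CGNL1, MARVELD2, MARVELD3, TJAP1 and PALS1. F11R encodes the junctional adhesion molecule JAM-A and MARVELD2 encodes tricellulin, which seals the corners where cells meet. Of 15 adherens junction and desmosome genes, 14 had a peak in at least 1 library and 4 in all 5, CDH1 (E-cadherin), the catenins CTNNA1 and CTNND1, and PKP3, a share in all 5 near that of all genes. PKP2, a desmosomal plakophilin, was listed in 2 of 2 HA-Bcl-xL and 0 of 3 control libraries, at a mean of 102 bases near its 5′ end in the HA-Bcl-xL libraries. Of 19 annotated epithelial regulator and surface genes, 14 had a peak in at least 1 library and 8 in all 5, which were GRHL2, OVOL2, ESRP1, KLF5, SPINT2, RAB25, MAL2 and MUC1. GRHL2 and OVOL2 are transcription factors that maintain epithelial identity, and ESRP1 sets epithelial splicing. The number in all 5 libraries depended on the start. At the MANE Select start it was 5 scaffold and polarity genes, 4 adherens junction and desmosome genes and 5 regulator and surface genes, where KLF5 and MUC1 had no peak and ESRP1 one in 3 libraries, beside 23.2% of all genes. At the 5′ end it was 4, 1 and 3 genes, beside 21.3% of all genes. Within 1 kb of any transcript start IgG peaks stood at 1 scaffold and polarity gene, 1 adherens junction or desmosome gene and 2 regulator or surface genes. Of all protein-coding genes, 2.27% had an IgG peak there. Among 12 mesenchymal markers, 7 had a peak around any start in at least 1 library, a share near that of all genes, and 2 in all 5, SNAI2 and ACTA2, but around the MANE Select start 2 had a peak in at least 1 library and only SNAI2 in all 5, with none for ACTA2. Of the neuroendocrine genes, TPH1 was likewise listed in 2 of 2 HA-Bcl-xL and 0 of 3 control libraries, with a mean of 153 bases. TPH1 is an enzyme of serotonin synthesis from tryptophan. The PKP2 and TPH1 calls belong to the 0.844% of genes with that pattern given above.

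**Figure D5:**
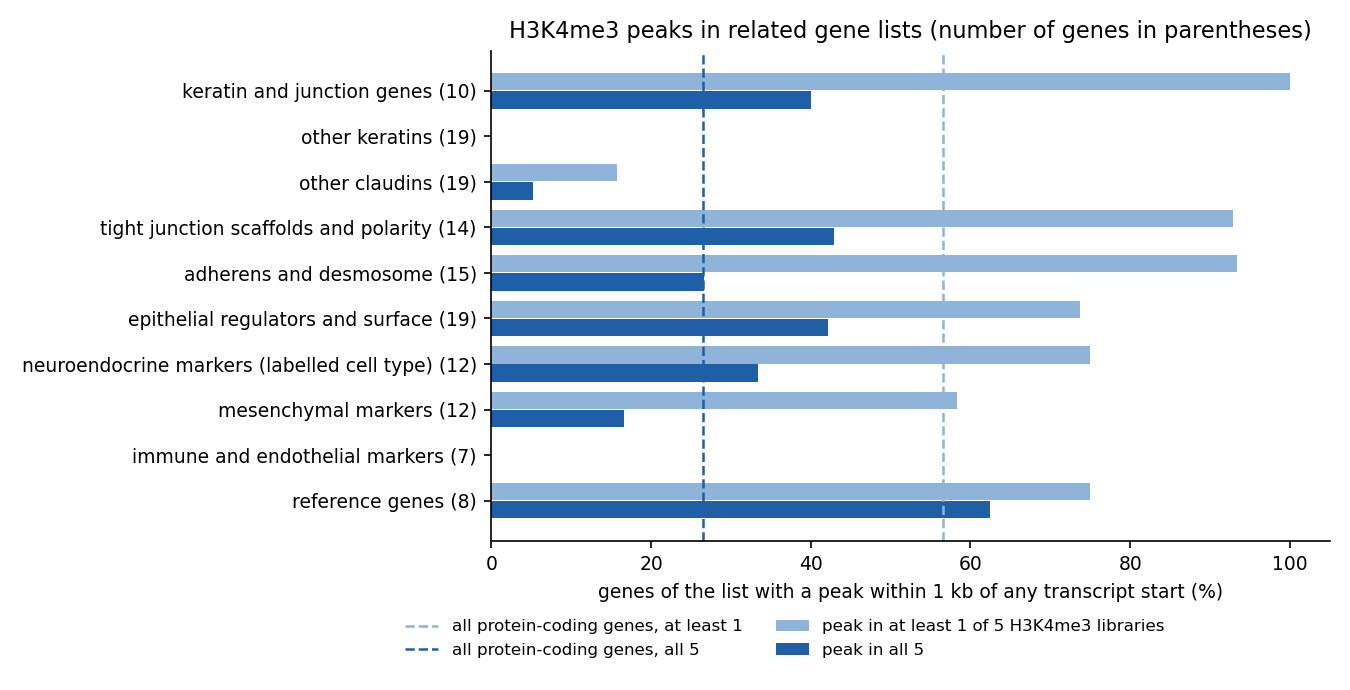
Share (%) of the genes of each list with an H3K4me3 peak within 1 kb of any transcript start, in at least 1 library (light bars) or in all 5 (dark bars), with dashed lines for all protein-coding genes at 56.6% and 26.5%. The 10 keratin and junction genes all had a peak in at least 1 library, and the 19 other keratins had none.

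Promoter sequence was compared over 300 bases, 250 before to 50 after a start, on GRCh37. The E-box CACCTG was found at the MANE Select start of 7 of the 10 genes, all but KRT7, CLDN4 and TJP1, and in 20.1% of 18916 promoters of the same length, with 5 matches in CLDN7. At the most 5′ end it was found in 5 of 10, beside 21.6% of 20132 promoters. The GC box stood in 8 of 10 at the MANE Select start, beside 62.4%, CCAAT in 2, beside 36%, the AP-1 motif in CLDN4 and EPCAM, beside 5.4%, and TATAAA in KRT8 alone, beside 9.44%. At the most 5′ end the GC box was in 4 of 10, beside 52.2%, and CCAAT in 6, beside 35.8%, while TATAAA was in CLDN4 alone, beside 10.9%, and the AP-1 motif in KRT8 alone, beside 6.37%. No Grainyhead match was in the windows at either start, which 1.49% of promoters held at the MANE Select start and 1.73% at the 5′ end. At the MANE Select start E-box matches stood both in genes with a peak in all 5 libraries, such as KRT8, KRT18 and EPCAM, and in genes with a peak in 1 or 2, such as KRT19 and CLDN7. The 2 kb around the MANE Select start had a CpG observed-to-expected ratio of 0.37 in KRT8, 0.5 in KRT18 and 0.4 in CLDN4, and of 0.88 in EPCAM and TJP1, with a median of 0.64 over all genes. Around the 5′ end of KRT8, where the peak shared with KRT18 lies, it was 0.43, with a median of 0.61 at the 5′ ends of all genes.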

How the data were processed

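CUT&RUN for H3K4me3 and IgG was done in control and HA-Bcl-xL BON1 cells, and 11 of 12 labelled libraries were analysed. The deposited files were 1 peak list per library in narrowPeak format, so peaks were called per library. The deposited columns, all made by the authors, hold a score, a fold enrichment (ratio over background), and the p and q of each peak as -log10 values. They served to rank and filter each list by itself, and the fold and p also to solve the fragments at each summit. The submitters' processing notes name bcl2fastq 2.20, Trimmomatic 0.36, Bowtie2 2.2.9, MACS2 2.1.1, deepTools 3.5.1 and hg19. Their settings, the treatment of duplicates and any control used in calling are not given in the sources used here. Contig names fit hg19 (GRCh37), and 0 peaks ended beyond the reference chromosomes. No read totals were given, so depth is known only from peak numbers and summit heights.

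Genes were the 20136 protein-coding genes of GENCODE lifted to GRCh37. A gene had a peak if at least 1 bp of it lay in the window. Fragments at each summit were solved as whole numbers n and a background, with fold as (n + 1) / (background + 1) and p as a Poisson tail. Depending on the list, 95.9 to 99.97% of peaks were matched with an error in -log10 p under 0.001. Bases under peaks were compared with limma 3.58.1 in R 4.3.3 (pseudocount of 50 bases, a mean of at least 50, each library centred on its median) and by exact permutation (NumPy 2.4.6 in Python 3.11.15), with Benjamini-Hochberg adjustment over all genes tested. Each procedure was tested on simulated data. Windows, starts, q limit, list lengths, pseudocount, filter, centring, the replicate block and left-out libraries were varied, and the MANE Select start was added after seeing the data. The 10 genes and all lists were chosen with earlier results of these data known. By rule all 10 are named, and from the other lists the genes with a peak in all 5 H3K4me3 libraries or with calls that do not overlap between lines. Some sequences and a gene of the lists are not reported here.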

Additional observations from a re-analysis of the deposited data

How the results depend on the processing

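Of the genes with a promoter peak in at least 1 library, 6 at the 5′ end, the number was 10 around any transcript start and 10 around the MANE Select start, which was added after seeing the data, and 5 to 6 with 1 library left out. The number with a peak in all libraries, 2, was 4 around any start, 4 around the MANE Select start, 1 by summit position (KRT8 alone) and 2 to 4 with 1 library left out, the 4 being without control replicate 2. For summit position and with 1 library left out, the share of all genes with a peak was not counted. The difference between lines in genes per library, -0.17, was -0.83 with equal list lengths of 10247 peaks and -0.67 to 0.33 with 1 library left out. No gene had an IgG peak under any alternative, and the number of genes that limma called between lines was 0 in every fit. The 5 genes that differed from IgG at an unadjusted exact p became 2 at a -log10 q of at least 5 (22.7% of all genes), 2 with equal numbers from every list (0.576%) and 2 to 5 with 1 library left out (21.3% to 33.7%). Values of 2 and 3 came without 1 HA-Bcl-xL library, where the smallest possible p rose to 0.0125 or 0.0167 and no gene passed after adjustment.

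Deviations of same-numbered H3K4me3 libraries of the lines correlated at 0.02 and 0.04. The deviations of the 2 HA-Bcl-xL libraries mirror each other, so these values cannot decide whether replicate numbers pair the lines. Whether H3K4me3 and IgG libraries of one number pair was not tested. With the replicate block limma called 0 genes, the KRT18 difference was -0.25 and that of EPCAM 1.69 (limma adjusted p = 0.677), and the exact test over 5 pairs, whose smallest p is 0.0625, passed 0 genes by construction.

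Small differences between lines changed sign for KRT18 at 2.5 kb (-0.073), any start (-0.078) and the MANE Select start (-0.073). Those for KRT8 did so without centring (0.095) and with equal list lengths (0.016). The EPCAM difference, at 1.15 the largest of the 5 genes fitted, was -0.18 with equal list lengths and -0.24 at the MANE Select start. With 1 library left out KRT8 ranged from -0.31 to 0.21, KRT18 from -0.43 to 0.50, EPCAM from 0.47 to 1.70, CLDN3 from -1.80 to 0.50 and OCLN from -0.15 to 0.88. None had a limma adjusted p under 0.05, while CLDN3 without HA-Bcl-xL replicate 2, at -1.80, had an unadjusted p = 0.0181 in limma (adjusted p = 0.759). A line left with 1 library is assumed to vary like the other. Peaks of 5 to 10 fragments, as at CLDN3, OCLN and KRT7, are near or below the median of their lists.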

Other observations

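Peaks beyond the 1 kb windows of the 10 genes often lay nearer to the start of another gene. At CLDN7 peaks in all 5 libraries, 9958 to 9989 and 10441 to 10464 bases downstream of the MANE Select start, were nearest to CTDNEP1 or ELP5, with 9 to 27 fragments, while the peak at the CLDN7 start itself was called in 2 libraries. At OCLN a peak about the start of GTF2H2C, beyond the 3′ end, was called in 4 libraries with 6 to 11 fragments. TJP1 had 2 peaks of 3 and 4 fragments deep in introns, both in HA-Bcl-xL replicate 3 alone.

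Around any transcript start, at 1 kb, 6 of 8 housekeeping genes were listed in at least 1 H3K4me3 library. In all 5 libraries 5 were listed, ACTB, TBP, PPIA, RPLP0 and B2M. Of the 10 keratin and junction genes 10 and 4 were so listed, and of all protein-coding genes 56.6% and 26.5%. HPRT1 and TUBB, also on the housekeeping list, had no called peak there in any H3K4me3 library. Within 1 kb of the 5′ end ACTB was listed in 1 HA-Bcl-xL library and in no control library, and GAPDH in 2 control libraries and 1 HA-Bcl-xL library.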
